A study of Mus musculus with 74 samples.

Results

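The 8 genes described here encode secreted or surface products of gastric mucous cells and a companion gene of the gastric epithelium: Muc5ac, Muc6, Gkn1, Gkn2, Gkn3, Tff1, Tff2 and Anxa10. They were chosen by name, and all 8 had a row among the 24015 genes of the RNA-seq count table. The series holds 74 mouse samples, of which 31 are RNA-seq libraries in 15 groups, 38 are ATAC-seq samples and 5 are ChIP-seq samples. Only the RNA-seq counts are used here. The libraries profile gut epithelium during development and in mice whose labels say that Cdx2, the homeobox factor of intestinal identity, was deleted at different ages.

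Wild-type embryos of the CD1 strain gave forestomach, hindstomach and small intestine at embryonic days E12, E14 and E16, and small intestine at E18, with 2 libraries per group. For E12 and E14 the label gives the intestinal cells as midgut. The label of E10 deletion covers 3 libraries from E16 intestine of Cdx2f/f; Shh-Cre embryos, which were untreated. The labels of E13 and E15 deletion cover 2 libraries each, from E16 and E18 intestine of Cdx2f/f; Villin-Cre embryos, with 5 mg tamoxifen by oral gavage. Shh-Cre acts in Shh-expressing endoderm and Villin-Cre in intestinal epithelium, so each allele is lost only where its Cre is active. Adult ileal villus cells gave 2 control libraries from Cdx2f/f mice given sunflower oil for 5 days and 2 knockout libraries from Cdx2f/f; Villin-Cre mice given 1 mg tamoxifen for 5 days, all killed 3 days later. All Cdx2f/f mice, adult controls included, were on a B6;129 mixed background, so in the embryonic comparisons genotype and strain cannot be told apart. Cells of E12 to E16 were sorted for the epithelial surface protein Epcam, and E18 and adult cells were released from villi with EDTA.

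The mucous layer of the stomach is built by at least a pair of cell types. Surface (pit) cells secrete the gel-forming mucin MUC5AC together with the trefoil peptide TFF1 and the gastrokines GKN1 and GKN2, whereas mucous neck and antral gland cells secrete MUC6 and TFF2. The intestine instead makes its mucus in goblet cells, from MUC2 and TFF3, and in adult intestine these gastric products are normally absent or scarce.

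Depth ranged from 5970227 to 62463167 counts per library, with a median of 21910062, and 3 counts corresponded to between 0.0408 and 0.463 CPM, counts scaled to a common effective library size. Levels are given in CPM for each library, or as the mean of a group where so stated, and they compare groups for a gene, not genes with each other. Cdx2 counts did not follow the knockout labels except for E10 deletion. Cdx2 stood at 17.4, 14.5 and 27.5 CPM in the E10 deletion libraries against 196 and 218 CPM in E16 intestine. It stood at 213 and 217 CPM in the libraries labelled E13 deletion, at 388 and 371 CPM in those labelled E15 deletion against 200 and 206 CPM in E18 intestine, and at 472 and 462 CPM in those labelled adult knockout, against 242 and 248 CPM in adult controls. A gene-level count does not separate deleted from retained exons, so these values do not test the deletion itself. The libraries labelled E13 deletion are labelled as stage E16, yet their mean Spearman correlation across genes was 0.840 with E16 intestine, 0.933 with E18 intestine and 0.957 with the libraries labelled E15 deletion. They are therefore set against both E16 and E18 intestine below. Markers in the libraries labelled E12 hindstomach ran both with and against the label. Cdx2 was at 116 and 160 CPM, against 153 and 115 CPM in E12 midgut. Pdx1 averaged 0.231 CPM against 37.3 CPM in E12 midgut, and the goblet gene Clca3 averaged 462 CPM against 0.299 CPM. The foregut genes Sox2 and Sox21 were called higher than in E12 midgut, with log2 fold changes of 1.56 and 2.00, and the goblet gene Tff3 was called lower (-1.78). Sox2 and Sox21 averaged only 14.8 and 3.83 CPM there, against 173 and 125 CPM in E12 forestomach. In E14 hindstomach they averaged 80.2 and 132 CPM. Of 16 genes of gastric surface and epithelial identity, 3 were called higher there and 8 lower, where 5.6% and 3.67% of all genes were. Results that use those libraries are given with that label, and the E14 and E16 comparisons do not contain them. Enterocyte markers (9 genes) made up 2.72 to 2.80% of counts in the libraries labelled E13 deletion and 0.208 to 0.359% in those of E10 deletion, compared with 1.31 to 1.36% in E16 intestine, 5.09 to 5.12% in E18 intestine and 0.0636 to 0.0662% in E16 hindstomach.

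RefSeq promoter windows, from 250 bases before to 50 bases after the start site, were at hand for 5 of the 8 genes: Gkn1, Gkn2, Gkn3, Muc6 and Anxa10. Those of the 3 gastrokine genes, which lie next to each other on chromosome 6 and all rose in the E10, E13 and E15 deletion libraries described below, are printed to base 20 after the start. Capitals mark the letters AGATAA, which zinc-finger factors of the endoderm can bind. They also mark the letters TATAAA of the core promoter box. The stretches are chr6:87350896-87351165 on the minus strand, chr6:87373115-87373384 on the plus strand and chr6:87388916-87389185 on the minus strand of GRCm38.p6, each written 5′ to 3′ in the direction of the gene.
Gkn1: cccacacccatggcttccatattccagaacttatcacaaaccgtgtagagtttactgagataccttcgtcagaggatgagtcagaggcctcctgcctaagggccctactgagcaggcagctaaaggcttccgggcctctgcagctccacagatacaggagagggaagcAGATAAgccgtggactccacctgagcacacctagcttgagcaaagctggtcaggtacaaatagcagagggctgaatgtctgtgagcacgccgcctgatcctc
Gkn2: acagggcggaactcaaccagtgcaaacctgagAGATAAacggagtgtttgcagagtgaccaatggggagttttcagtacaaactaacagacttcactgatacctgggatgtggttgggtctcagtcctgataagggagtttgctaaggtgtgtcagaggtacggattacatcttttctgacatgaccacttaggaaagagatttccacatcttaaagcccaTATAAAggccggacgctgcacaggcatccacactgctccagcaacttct
Gkn3: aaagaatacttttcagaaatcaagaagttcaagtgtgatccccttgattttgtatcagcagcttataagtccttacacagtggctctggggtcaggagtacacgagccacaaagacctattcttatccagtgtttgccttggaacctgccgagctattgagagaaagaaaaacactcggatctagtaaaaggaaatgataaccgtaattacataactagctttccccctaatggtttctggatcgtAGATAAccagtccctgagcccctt

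Motifs were searched on both strands, in the letters given and in their reverse complement. The zinc-finger type AGATAA was found in 4 of the 5 windows: at -82 in Gkn1, -218 in Gkn2, -4 in Gkn3 and -194 in Muc6, counting the first base of the match from the start site. It was present in 11.4% of 27025 mouse promoter windows of the same length. The core promoter box TATAAA lay at -29 in Gkn2 and -32 in Anxa10, against 14.2% of all windows. The CDX-type letters TTTATNG were in none of the 5 windows, against 11.3% of all windows; their reverse complement can share letters with the core promoter box. The SOX-type letters ACAATG were in none of them either, against 12.8%. These are letter matches in short windows and describe the sequence only.

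In wild-type embryos, 6 of the 7 genes tested rose in hindstomach between E14 and E16. A gene was called higher or lower where edgeR's quasi-likelihood test gave a Benjamini-Hochberg adjusted p under 0.05 over all genes tested and the log2 fold change was at least 1. Tff1 was listed at 0 in all 31 libraries and was not tested, which leaves 7 genes tested in embryos. In E14 hindstomach, 3 of 7 genes (Muc5ac, Muc6 and Anxa10) were called higher than in E14 midgut, where 3.49% of 17239 genes were called higher. In E16 hindstomach, 7 of 7 were called higher than in E16 intestine (17.5% of all genes), and 7 of 7 higher than in E16 forestomach (13.8%). Against forestomach at E14 the count was 4 of 7 (Muc5ac, Muc6, Tff2 and Anxa10, with 5.62% of all genes). From E14 to E16 in hindstomach all 7 were called, 6 higher and Muc5ac lower, where 22.0% of all genes were called in either direction. The median log2 fold change of the 7 genes was 5.73 between hindstomach and intestine at E16, and 0.18 over all genes tested. Over the same step the mesenchymal markers (14 genes, all called higher) went from 0.0166 to 0.0180% of hindstomach counts at E14 to 0.921 to 0.961% at E16. Blood and immune markers (10 genes, 5 of 6 tested called higher) went from 0.00169 to 0.00179% to 0.188 to 0.249%. Their part in the rise was not tested. Pancreatic markers (6 genes) made up 0.152 to 0.174% of counts in E16 hindstomach. They made up 0.00388 to 0.00737% in E16 forestomach and 0.0402 to 0.0460% in E16 intestine. At E16, 6 were called higher in hindstomach than in forestomach and 4 higher than in intestine. At E14 the counts were 4 against forestomach and 3 against midgut, with 0 lower in each comparison. Their part in these differences was not tested. In bulk libraries, more cells of a type and more RNA per cell cannot be told apart.

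**Figure D1:**
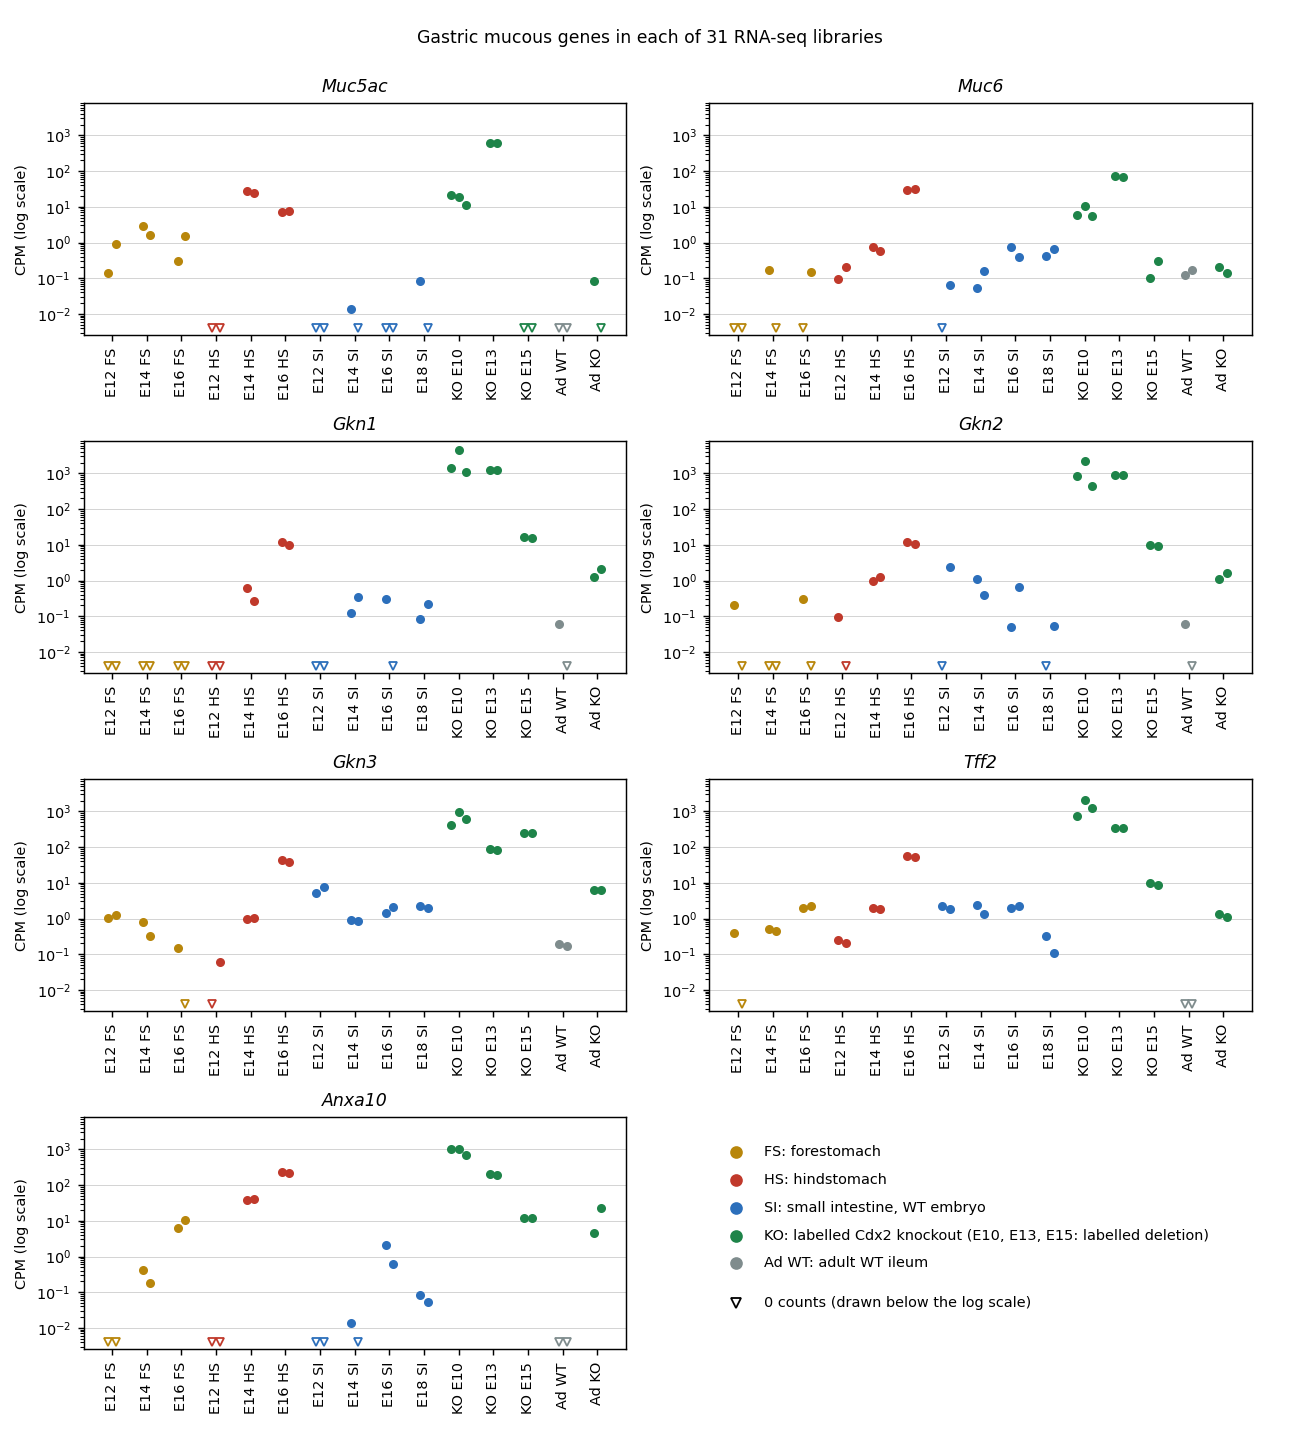
Each panel plots a gene in all 31 libraries, with CPM on a logarithmic axis and the 15 groups along the horizontal axis; a point is a library and an open triangle a library with 0 counts. E16 hindstomach lies above E16 intestine in all 7 panels, and Muc5ac has its highest points in the libraries labelled E13 deletion, at 621 and 601 CPM, and stands at 0 in those labelled E15 deletion.

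Muc5ac, the gel-forming mucin of gastric surface cells, was the gene with an early maximum in wild-type stomach. It had 0 counts in both libraries labelled E12 hindstomach, 768 and 647 counts (27.1 and 24.3 CPM) at E14, and 158 and 175 counts (7.01 and 7.61 CPM) at E16. The E14 libraries stood above those of both other ages without overlap. The rise from the libraries labelled E12 was at least 282-fold, with the floor set at 3 counts per library (edgeR adjusted p 2.06e-07). The fall from E14 to E16 was -1.81 on the log2 scale (SE 0.41, adjusted p 0.00303 by edgeR). Forestomach also held some Muc5ac transcript, with 69 and 45 counts at E14 (2.95 and 1.63 CPM). Hindstomach was higher than forestomach by 3.50 (SE 0.45, adjusted p 6.73e-05 by edgeR) at E14 and by 2.98 (SE 0.65, adjusted p 0.00247 by edgeR) at E16, both as log2 fold changes. E16 forestomach held 2 and 10 counts, and the E16 value ran from 2.25 to 4.55 over the alternative fits. The 8 wild-type embryonic intestine libraries held 2 Muc5ac counts in all, 1 at E14 and 1 at E18.

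Muc6, the gel-forming mucin of neck and antral gland cells, came later. Its hindstomach counts were 3 and 7 in the libraries labelled E12, 21 and 15 at E14 (0.741 and 0.564 CPM) and 680 and 710 at E16 (30.2 and 30.9 CPM). The E14 to E16 rise had a log2 fold change of 5.53 (SE 0.67, adjusted p 6.09e-06 by edgeR). Between those ages Muc5ac and Muc6 therefore moved in opposite directions in the same libraries. E16 intestine held a small amount, 0.755 and 0.382 CPM, and the difference from hindstomach was 5.73 on the log2 scale (SE 0.69, adjusted p 3.37e-06 by edgeR). In E16 forestomach a single count was seen, so the hindstomach excess of 397-fold carries a 95% counting interval of 71.2 to 15701. The E14 calls for Muc6 rest on few reads: against E14 midgut the log2 fold change was 2.82 (SE 0.77, adjusted p 0.0223 by edgeR), and it was no longer called without either E14 hindstomach library (edgeR adjusted p 0.142 and 0.0628) or without the first E14 midgut library (0.371). The call against E14 forestomach was likewise lost without either E14 hindstomach library (edgeR adjusted p 0.145 and 0.0676) or the second forestomach library (0.256).

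The gastrokines, small secreted proteins of gastric mucous cells, were detected at low counts in E14 hindstomach and rose by E16. Gkn1 had 17 and 7 counts in E14 hindstomach and 277 and 225 at E16 (12.3 and 9.79 CPM). Gkn2 had 28 and 34 counts at E14 and 271 and 245 at E16 (12 and 10.7 CPM). Gkn3, a related gene that is active in mouse, had 27 and 27 counts at E14 and 997 and 880 at E16 (44.2 and 38.3 CPM). No E14 library reached an E16 library for any of the 3 genes. Their log2 fold changes from E14 to E16 were 4.65 (SE 0.77), 3.32 (SE 0.86) and 5.38 (SE 0.37), with edgeR adjusted p of 0.000382, 0.00623 and 4.56e-09. The Gkn2 call was lost without the first E14 library (edgeR adjusted p 0.0667) and with DESeq2 (log2 fold change 3.46, adjusted p 0.0929). Gkn1 had 0 counts in all 6 forestomach libraries, and E16 hindstomach was at least 23.9-fold higher than E16 forestomach. The Gkn2 difference from E16 forestomach, where 2 counts were seen, was 73.7-fold with a counting interval of 20.3 to 610, and without the first or the second forestomach library its edgeR adjusted p was 0.0578 or 0.0774.

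Gkn3 differed from its neighbours in early intestine. It stood at 5.11 and 7.55 CPM in E12 midgut (151 and 237 counts), at 0.898 and 0.868 CPM in E14 midgut and at 1.46 and 2.07 CPM in E16 intestine. Gkn1 had 0 counts in both E12 midgut libraries, and Gkn2 had 0 counts in the first and 77 in the second. Against E12 midgut, Gkn3 and Tff2 were called lower in the libraries labelled E12 hindstomach, 2 of 7 genes where 3.67% of all genes were called lower. The Gkn3 ratio was 210-fold lower (counting interval 57.7 to 1739), and the Tff2 log2 fold change was -3.13 (SE 0.66, adjusted p 0.00335 by edgeR). Both calls ended when only those 4 libraries were fitted (edgeR adjusted p 0.137 and 0.351), and markers of this group ran both with and against its label.

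Tff2, the trefoil peptide of mucous neck cells, was present in intestine at a low level before it rose in stomach. It stood at 2.23 and 1.85 CPM in E12 midgut, 2.42 and 1.38 CPM at E14 and 1.91 and 2.18 CPM at E16. In hindstomach it went from 0.246 and 0.209 CPM in the libraries labelled E12 to 1.94 and 1.80 CPM at E14 and 57.5 and 53.5 CPM at E16. At E14 hindstomach and midgut overlapped, with a log2 difference of -0.10 (SE 0.46, adjusted p 0.965 by edgeR). At E16 the difference was 4.76 (SE 0.46, adjusted p 1.66e-07 by edgeR). Its E14 excess over forestomach, 1.98 on the log2 scale (SE 0.62, adjusted p 0.0445 by edgeR), was lost without any single library of either group, with edgeR adjusted p between 0.122 and 0.226. Tff1, the trefoil peptide of surface cells, was listed at 0 throughout, including E16 hindstomach. The blood genes Hba-a1, Hba-a2, Hbb-b1 and Hbb-b2 were also listed at 0 in all groups while Alas2, a heme enzyme of red cells, averaged 15766 CPM in E16 forestomach, so a 0 in this table need not be a low level, and none is given for Tff1.

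Anxa10, an annexin found in gastric epithelium, was the other early gene. It had 0 counts in the libraries labelled E12 hindstomach, 1082 and 1076 at E14 (38.2 and 40.5 CPM) and 5249 and 5130 at E16 (233 and 223 CPM). The first step was at least 432-fold (edgeR adjusted p 1.38e-09), and the second had a log2 fold change of 2.54 (SE 0.27, adjusted p 4.11e-06 by edgeR). From the libraries labelled E12 to E14, 5 of 7 genes were called higher (Muc5ac, Muc6, Gkn3, Tff2 and Anxa10), where 10.8% of all genes were. Over that step the pancreatic markers (6 genes, 5 called higher) went from 0.000582 to 0.000677% of counts, with Prss2 and Cpa1 at 0, to 0.127 to 0.130%, and their part in the rise was not tested. Leaving out any single library of the 4 ended the Muc6 call in that comparison, with edgeR adjusted p between 0.0639 and 0.212. Forestomach Anxa10 was lower but present at E16, at 6.33 and 10.7 CPM, which is 4.74 below hindstomach on the log2 scale (SE 0.33, adjusted p 1.83e-08 by edgeR). Mesenchymal markers (14 genes) made up 2.77 to 3.30% of counts in E16 forestomach, 0.921 to 0.961% in E16 hindstomach and 0.167 to 0.185% in E16 intestine, and their part in these differences was not tested.

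In wild-type intestine these genes stayed low, with small shifts in time. From E14 to E16, 2 of 7 genes were called higher, Anxa10 and Muc6, where 13.7% of all genes were. Anxa10 went from 1 and 0 counts to 41 and 11, a 135-fold ratio with a counting interval of 23.1 to 5416. The Muc6 call, with a log2 fold change of 2.63 (SE 0.80, adjusted p 0.0139 by edgeR), was lost without the first E14 library (edgeR adjusted p 0.198) or the first E16 library (0.145). Over the E14 to E16 step mesenchymal markers (14 genes, 9 called higher and 0 lower) went from 0.0433 to 0.0498% of counts to 0.167 to 0.185%. Of 6 pancreatic markers 3 were called higher and 0 lower, and of 6 blood and immune markers tested 4 higher and 2 lower. The part of these lists in the rise of Anxa10 and Muc6 was not tested. From E16 to E18, 2 of 7 were called lower, Anxa10 and Tff2, where 22.1% of all genes were, so this share is close to the background. Tff2 fell from 1.91 and 2.18 CPM to 0.329 and 0.110 CPM (4 and 2 counts), and the call ended without the second E18 library (edgeR adjusted p 0.0600). The pancreatic markers (6 genes), which mark tissue next to the duodenum, went from 0.0402 to 0.0460% of counts at E16 to 0.000721 to 0.00101% at E18, where Cpa1, Cela2a and Ptf1a were at 0, and E16 and E18 cells were isolated in different ways. Mesenchymal markers went from 0.167 to 0.185% to 0.00268 to 0.00283% over that step (12 of 14 called lower), with Actg2, Des, Lum and Twist1 at 0 at E18. The part of both marker lists in the fall of Anxa10 and Tff2 was not tested.

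**Figure D2:**
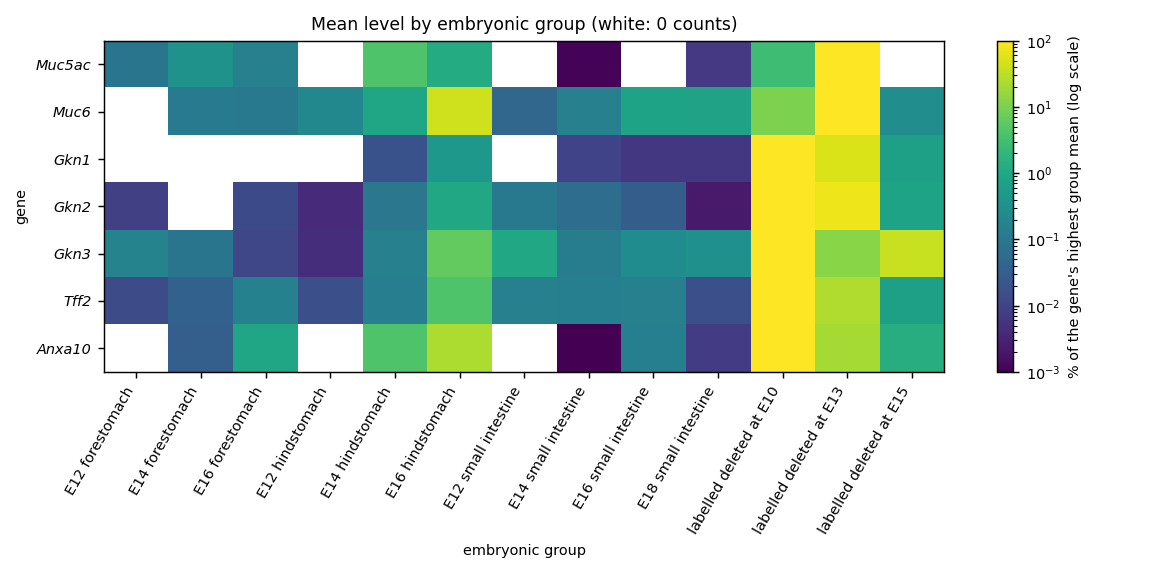
Each cell shows a gene's mean CPM in an embryonic group as a percentage of that gene's highest embryonic group mean, on a logarithmic colour scale, with white for 0 counts. Muc5ac and Muc6 have their maximum in the libraries labelled E13 deletion, and the other 5 genes have theirs in those labelled E10 deletion; Gkn3 keeps 37.6% of its maximum in those labelled E15 deletion.

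The libraries labelled Cdx2 knockout held gastric mucous transcripts in intestine, in amounts that differed with the label. Under E10 deletion 7 of 7 genes were called higher than in E16 intestine (23.9% of all genes), and under E13 deletion 7 of 7 were (18.7%). Against E18 intestine, the libraries labelled E13 deletion again had 7 of 7 called higher (8.19%). Under E15 deletion 5 of 7 were called higher than in E18 intestine (7.79%), without Muc5ac and Muc6. In adult ileum, 5 genes passed the filter on low counts (Gkn1, Gkn2, Gkn3, Tff2 and Anxa10), with 0 to 3 counts in each control library. All passed only through the knockout libraries, so each had to differ. Their being called higher, where 8.41% of 12444 genes were, is therefore a description, and nothing is read from that count. The E10 and E13 comparisons share the E16 intestine libraries. Markers of other cell types moved in the same comparisons. Squamous keratinocyte markers (4 genes) made up 1.2e-05 to 6.01e-05% of counts in E16 intestine, with Trp63 at 0, and 0.0178 to 0.0823% under E10 deletion, where 4 of 4 were called higher; under E13 deletion 0 of 4 were called. Mesenchymal markers (14 genes) fell from 0.167 to 0.185% of counts in E16 intestine to 0.0140 to 0.0203% under E10 deletion (10 called lower, 1 higher) and 0.00552 to 0.00585% under E13 deletion (13 called lower). Against E18 intestine, where they made up 0.00268 to 0.00283%, 7 mesenchymal markers were called higher and 1 lower under E13 deletion. Pancreatic markers (6 genes, 4 called higher and 0 lower) made up 0.000721 to 0.00101% in E18 intestine and 0.00383 to 0.00392% under E13 deletion. The part of these marker lists in the rise of the gastric genes was not tested.

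Muc5ac differed most between the labels. It had 318, 224 and 89 counts (21.2, 18.8 and 11 CPM) under E10 deletion, 15023 and 13481 counts (621 and 601 CPM) under E13 deletion, and 0 counts in both libraries under E15 deletion. E16 intestine had 0 counts, so the excess was at least 108-fold under E10 deletion and at least 3884-fold under E13 deletion (edgeR adjusted p 1.01e-07 and 1.05e-09). Against E18 intestine, with its single count, the ratio under E13 deletion was 18580 with a counting interval of 3335 to 733909. Under E15 deletion both groups lay at or under 3 counts, and no fold is given. Adult knockout ileum had 2 counts in the first library and 0 in the second, and adult control ileum 0 in both.

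Muc6 followed the same order of groups at smaller fold changes. It stood at 5.88, 10.3 and 5.68 CPM under E10 deletion, 73.3 and 69.2 CPM under E13 deletion, and 0.103 and 0.306 CPM under E15 deletion, against 0.755 and 0.382 CPM in E16 intestine and 0.411 and 0.659 CPM in E18 intestine. Only the E15 deletion libraries lay below their controls. The log2 fold changes were 3.66 (SE 0.63, adjusted p 5.22e-05 by edgeR), 6.95 (SE 0.72, adjusted p 2.12e-07 by edgeR) and -1.33 (SE 0.80, adjusted p 0.237 by edgeR, not called). Adult values were 0.207 and 0.143 CPM in knockout against 0.125 and 0.170 CPM in control ileum, from 2 to 5 counts a library, and Muc6 was not tested there.

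Gkn1 and Gkn2 were abundant in the E10 and E13 deletion libraries. Gkn1 stood at 1372, 4587 and 1129 CPM under E10 deletion and at 1278 and 1214 CPM under E13 deletion, against 0.302 and 0 CPM in E16 intestine. Gkn2 stood at 862, 2270 and 435 CPM under E10 deletion and at 907 and 897 CPM under E13 deletion, against 0.0503 and 0.655 CPM. The second E10 deletion library was the highest for both genes, and both E13 deletion libraries lay within the range of the E10 deletion group. The log2 fold changes were 13.83 (SE 0.95) and 12.91 (SE 0.95) for Gkn1, with edgeR adjusted p of 9.04e-09 and 4.24e-08. For Gkn2 they were 11.74 (SE 1.12) and 11.34 (SE 1.13), with edgeR adjusted p of 3.71e-08 and 1.30e-07. The E16 intestine libraries held 6 and 0 counts of Gkn1 and 1 and 12 of Gkn2, so the size of these folds is uncertain. Over the alternative fits the Gkn1 values ran from 12.9 to 18.8 under E10 deletion and from 11.99 to 17.89 under E13 deletion. Those of Gkn2 under E10 deletion ran from 10.81 to 14.38. Under E15 deletion both genes were present at far lower levels, 17 and 15.8 CPM for Gkn1 and 9.72 and 9.10 CPM for Gkn2, still above E18 intestine in each library (edgeR adjusted p 0.000169 and 0.00183).

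Gkn3 did not follow that decline. It stood at 427, 939 and 621 CPM under E10 deletion, at 86.2 and 81.5 CPM under E13 deletion and at 254 and 243 CPM under E15 deletion. Every E15 deletion library lay above both E13 deletion libraries. The log2 fold changes against intestine of the labelled stage were 8.55 (SE 0.39), 5.57 (SE 0.36) and 6.90 (SE 0.38), with edgeR adjusted p of 1.65e-12, 3.00e-10 and 2.07e-10. The change under E13 deletion was smaller than that under E15 deletion by -1.33 on the log2 scale (SE 0.50, adjusted p 0.0389 by edgeR). That difference was no longer called with RLE scaling (edgeR adjusted p 0.0640), on thinned counts (0.186), or in 7 of 8 fits that left out 1 library.

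Tff2 stood at 719, 2075 and 1245 CPM under E10 deletion, 341 and 335 CPM under E13 deletion, and 10.1 and 8.68 CPM under E15 deletion. The 3 groups did not overlap. Its log2 fold changes were 9.36 (SE 0.52), 7.37 (SE 0.49) and 5.52 (SE 0.71), with edgeR adjusted p of 1.58e-11, 4.48e-10 and 8.27e-06. Anxa10 stood at 1049, 1005 and 705 CPM, at 203 and 194 CPM, and at 11.8 and 12.2 CPM in the same order. Its log2 fold changes under E10 and E13 deletion were 9.41 (SE 0.39) and 7.20 (SE 0.37), with edgeR adjusted p of 6.42e-12 and 1.69e-10. Against the 2 counts of E18 intestine, the ratio under E15 deletion was 183 with a counting interval of 50.5 to 1517. For Tff2 and Anxa10 the order of the 3 labels in CPM was thus E10, E13, E15 from high to low, unlike the order for Muc5ac, Muc6 or Gkn3. Against intestine of the labelled stage Anxa10 did not keep that order, with a log2 fold change of 7.41 (SE 0.61) under E15 deletion. Its change under E13 deletion differed from that under E15 deletion by -0.21 (SE 0.89, adjusted p 0.948 by edgeR), which was not called.

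In adult ileum the values were small but separate from the controls. Gkn3 stood at 6.21 and 6.49 CPM in the knockout libraries (150 and 91 counts) against 0.188 and 0.170 CPM (3 and 3 counts), a log2 fold change of 5.10 (SE 0.35). Gkn1 had 31 and 29 counts against 1 and 0, a 52.9-fold ratio with a counting interval of 9.13 to 2122. Gkn2 had 26 and 23 counts against 1 and 0, a 43.2-fold ratio with an interval of 7.39 to 1740. Tff2 had 33 and 15 counts against 0 and 0, at least 6.81-fold. Anxa10 had 112 and 322 counts against 0 and 0, at least 77.2-fold, and its knockout libraries differed at 4.64 and 23.0 CPM. Since the filter was passed through the knockout libraries alone, these values describe the 4 libraries, and the test adds no support to them. Of these genes, Tff2 alone lies after a blank cell of the adult columns, so its adult values depend on closing that cell up. With the columns as deposited, 4 members were called, without Tff2.

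E16 hindstomach gives a scale for these amounts. Relative to its mean, Gkn1 was 214-fold under E10 deletion, 113-fold under E13 deletion and 1.49-fold under E15 deletion, and Gkn2 was 105-fold, 79.5-fold and 0.830-fold. Muc5ac was 2.33-fold under E10 deletion and 83.6-fold under E13 deletion. Anxa10 was 4.03-fold, 0.872-fold and 0.0528-fold, and Muc6 0.239-fold under E10 deletion and 2.33-fold under E13 deletion. The second E10 deletion library carries the gastrokine values: without it Gkn1 was 113-fold, as under E13 deletion, and Gkn2 57.1-fold, below the value under E13 deletion. Against E16 hindstomach, all 7 genes were called under E10 deletion, 6 higher and Muc6 lower (log2 fold change -2.06, SE 0.49, adjusted p 0.00117 by edgeR), where 56.3% of all genes were called in either direction. Under E13 deletion 5 of 7 were called higher (Muc5ac, Gkn1, Gkn2, Gkn3 and Tff2), where 19.7% of all genes were. Muc6, at 1.22 (SE 0.54, adjusted p 0.057 by edgeR), was not. It was called with DESeq2 (1.23, DESeq2 adjusted p 0.0136), with only the groups compared (1.34, edgeR adjusted p 4.26e-06) and on thinned counts (1.14, edgeR adjusted p 0.0176). The Muc5ac excess under E10 deletion, 1.23 (SE 0.38, adjusted p 0.0105 by edgeR), was not called without the first E16 hindstomach library (edgeR adjusted p 0.0687). The Gkn3 excess under E13 deletion, 1.02 (SE 0.28, adjusted p 0.00355 by edgeR), fell below the fold minimum without the second E16 hindstomach library or the first E13 deletion library (0.92 and 0.98). Anxa10 under E13 deletion, at 203 and 194 CPM, lay below the 233 and 223 CPM of hindstomach without being called (log2 fold change -0.20, SE 0.26, adjusted p 0.523 by edgeR). Markers of other cell types also differed from hindstomach. All 14 mesenchymal markers were called lower under E10 and under E13 deletion, from 0.921 to 0.961% of counts in E16 hindstomach. Of 6 pancreatic markers, 3 were called lower under E10 deletion and 6 under E13 deletion. All 4 squamous markers were higher under E10 and lower under E13 deletion. Their part in these ratios was not tested.

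**Figure D3:**
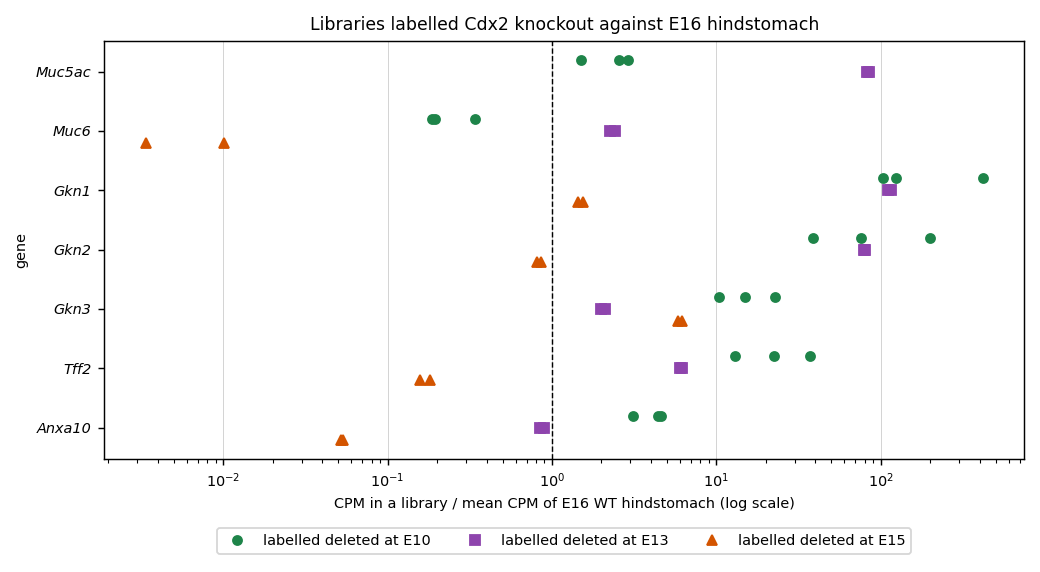
Each point is a library labelled Cdx2 knockout, placed by its CPM divided by the mean CPM of E16 hindstomach on a logarithmic axis; the dashed line marks equality. Gkn1 and Gkn2 lie far to the right under E10 and E13 deletion, Muc5ac is far to the right under E13 deletion alone, and the Muc5ac libraries of E15 deletion are not drawn because they have 0 counts.

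Between E13 and E10 deletion, 5 of 7 genes were called, where 57.4% of all genes were called in either direction, so the share itself is close to the background. The gel-forming mucins were higher under E13 deletion, Muc5ac by 5.15 (SE 0.38, adjusted p 6.60e-09 by edgeR) and Muc6 by 3.28 (SE 0.50, adjusted p 1.17e-05 by edgeR). Gkn3, Tff2 and Anxa10 were lower, with log2 fold changes of -2.98 (SE 0.28), -1.99 (SE 0.34) and -2.21 (SE 0.26) and edgeR adjusted p of 1.19e-08, 3.93e-05 and 8.62e-07. For Gkn1 the value was -0.92 (SE 0.47, adjusted p 0.0968 by edgeR), and it was called without the first (-1.20, edgeR adjusted p 0.0347) or the third E10 deletion library (-1.26, edgeR adjusted p 0.0153), on thinned counts (-1.11, edgeR adjusted p 0.0294) and with a replicate block (-1.17, edgeR adjusted p 0.0264). The value for Gkn2 was -0.40 (SE 0.59, adjusted p 0.571 by edgeR). The groups differ in the Cre line and in tamoxifen as well as in the labelled age of deletion, and these cannot be told apart. Squamous keratinocyte markers (4 genes) made up 0.0178 to 0.0823% of counts under E10 deletion, 1.78e-05 to 2.56e-05% under E13 deletion and 0.00686 to 0.00724% in E16 hindstomach, and none of the 4 genes was at 0 in any of those groups; their part in these differences was not tested.

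Tests of the difference between changes gave the following counts. The change under E13 deletion differed from that under E15 deletion for 3 of 7 genes (Muc5ac, Muc6 and Gkn3), where 37.9% of all genes did. The change under E10 deletion differed from that under E15 deletion for 4 of 7 genes (Muc5ac, Muc6, Gkn3 and Tff2), where 41.1% did. Both shares are close to the background. In the second test the Muc5ac and Tff2 calls were each lost in 7 of the 9 fits that left out 1 library (edgeR adjusted p from 0.0600 to 1 and from 0.0514 to 0.377). The Gkn3 call in that test was lost without the first E16 intestine library (1.41, edgeR adjusted p 0.0542) and on thinned counts (edgeR adjusted p 0.0580). In the first test the Muc5ac call was lost without the first E18 library (edgeR adjusted p 1). The hindstomach to intestine difference at E16 differed from that at E14 for 3 of 7 genes (Gkn3, Tff2 and Anxa10), where 13.1% did. For Gkn3 and Tff2 it grew, by 4.4 (SE 0.55, adjusted p 1.65e-05 by edgeR) and 4.85 (SE 0.64, adjusted p 3.42e-05 by edgeR). For Anxa10 it shrank by -3.94 (SE 1.02, adjusted p 0.0142 by edgeR), a value that rests on 1 count in E14 midgut and depends on the prior count, and the call was lost without the first E14 or the first E16 intestine library (edgeR adjusted p 0.144 and 0.0784).

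Among other genes of gastric surface and epithelial identity (16 listed), 11 were called higher and 1 lower under E10 deletion, 13 higher and 0 lower under E13 deletion, and 8 higher and 1 lower under E15 deletion. Over all genes tested, 23.9% were called higher and 27.6% lower under E10 deletion, 18.7% and 20.8% under E13 deletion, and 7.79% and 9.7% under E15 deletion. Against E18 intestine, E13 deletion again had 13 higher and 0 lower, where 8.19% and 7.91% of all genes were. The medians of their log2 fold changes under the E10, E13 and E15 labels were 6.11, 4.53 and 2.45, against -0.10, -0.05 and 0 over all genes tested. In adult ileum several of these genes passed the filter on low counts only through the knockout libraries, among them Dpcr1 (0.0567 CPM in controls and 28.2 CPM in knockouts) and Cldn18 (0 and 4.09 CPM), so no count is read from that comparison. Ctse, an intracellular aspartic protease of surface cells, averaged 1091 CPM under E10 deletion, 1909 CPM under E13 deletion and 10.1 CPM under E15 deletion, against 7.50 CPM in E16 and 1.10 CPM in E18 intestine. Cldn18, a gastric tight junction claudin, averaged 1188, 69.4 and 0.923 CPM, against 2.15 and 0 CPM. Sox2, a foregut transcription factor of the SOX family, averaged 62.8 CPM under E10 deletion, 1.33 CPM under E13 deletion and 0 under E15 deletion, against 0.403 CPM in E16 intestine. Against E16 intestine it was called higher under E10 deletion (log2 fold change 7.22), while the value under E13 deletion, 1.67, was not called. Sox2 was lower under E13 than under E10 deletion by a log2 fold change of -5.56 (SE 0.53, adjusted p 3.85e-08 by edgeR). The genes of acid and protease secretion (7 of 8 listed were in the table) had 6 called higher and 1 lower under E10 deletion, 7 higher under E13 deletion and 4 higher under E15 deletion, beside the same shares over all genes. In adult ileum 3 of the 7 were tested, of which Pgc (0 and 3.02 CPM) and Atp4a (0.151 and 11.6 CPM) passed the filter through the knockout libraries.

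Genes whose products glycosylate, fold and pack mucins gave mixed counts. Of 22 such genes, 8 were called higher and 4 lower under E10 deletion, 6 higher and 0 lower under E13 deletion, 6 higher and 2 lower under E15 deletion, and 4 higher and 3 lower in adult ileum. The shares over all genes were those given above for the embryonic labels and 8.41% higher and 12% lower in adult ileum. Against E18 intestine, E13 deletion had 8 higher and 2 lower. The medians were 0.07, 0.35, 0.87 and 0.44 on the log2 scale, against -0.10, -0.05, 0 and 0.01 over all genes. Gcnt3, a core-branching glycosyltransferase, was called higher under all 4 labels, with log2 fold changes of 2.61, 3.76, 3.43 and 3.01. A4gnt, which caps the glycans of MUC6, averaged 16.6 CPM in E16 hindstomach and 7.87 CPM in E16 intestine and was called lower under E10 deletion (2.24 CPM, log2 fold change -1.81). Agr2, a disulfide isomerase needed for mucin folding, was called higher under E10 deletion (1864 CPM against 467 CPM) and not under E13 deletion (236 CPM).

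The goblet genes make intestinal mucus. All 8 listed were called lower in E16 hindstomach than in E16 intestine, where 8.1% of all genes were. Under E10 deletion 1 was called higher and 5 lower, where 23.9% of all genes were called higher and 27.6% lower. Under E13 deletion 4 were called higher and 1 lower against E16 intestine (18.7% and 20.8% of all genes), but 1 higher and 1 lower against E18 intestine (8.19% and 7.91%). Under E15 deletion 2 were called higher and 0 lower (7.79% and 9.7%), and in adult ileum 0 higher and 2 lower (8.41% and 12%). Muc2, the intestinal gel-forming mucin, averaged 5.89 CPM under E10 deletion and 927 CPM under E13 deletion, against 28.0 CPM in E16 intestine and 501 CPM in E18 intestine. In the libraries labelled E13 deletion, Muc2 and Muc5ac were therefore both high; against E18 intestine Muc2 was not called (log2 fold change 0.89, SE 0.57, adjusted p 0.294 by edgeR), while Muc5ac was.

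**Figure D4:**
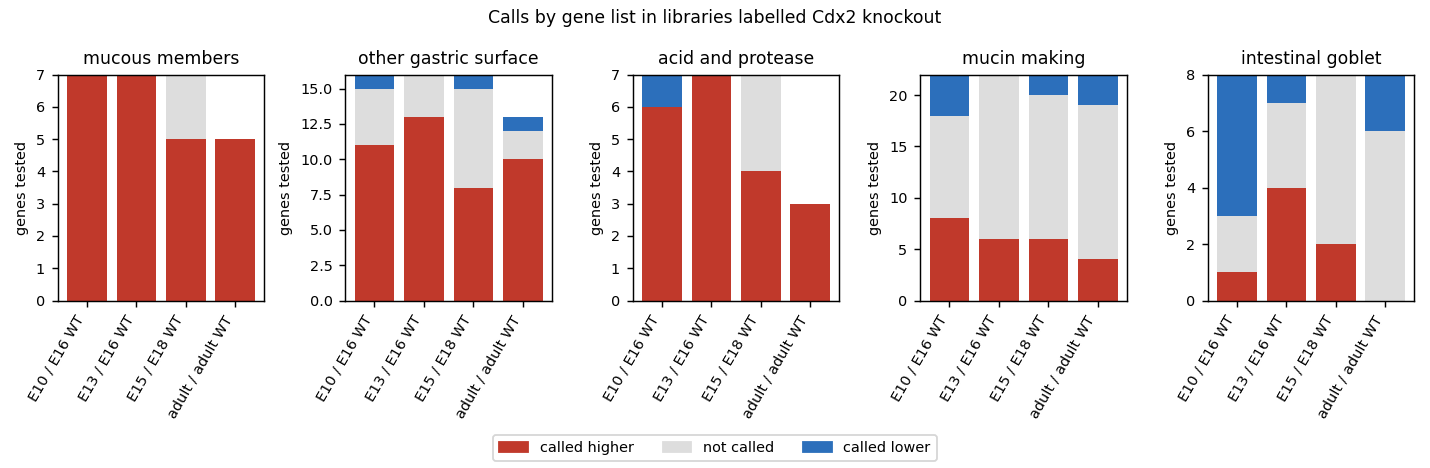
Stacked bars give, for each gene list and each label compared with its control, the number of genes tested that were called higher (red), not called (grey) or called lower (blue). The 7 mucous genes are called higher under the E10 and E13 labels, and the other gastric surface list has 11, 13 and 8 of 16 called higher under the E10, E13 and E15 labels. The adult bar of the mucous genes, and part of those of the other gastric surface and the acid and protease lists, hold genes that passed the filter on low counts only through the knockout libraries.

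Over the 27 embryonic libraries, which share a preparation within groups and differ in depth, the log2 CPM of the 7 genes correlated with each other, as a description. Pearson's r ranged from 0.429 for Muc5ac with Gkn3 to 0.962 for Gkn1 with Gkn2, and Spearman's rho for those pairs was 0.256 and 0.834. Tff2 was close to Gkn2 (r = 0.95) and Gkn1 (r = 0.940). Among 13114 genes whose highest group mean reached 10 CPM, the 3 most like Muc5ac were Dpcr1 (r = 0.884), Atp4b (0.860) and Ctse (0.852). Those most like Muc6 were Edem2 and A4gnt (both 0.830) and Dpcr1 (0.825). Besides members, those most like Gkn1 and Gkn3 included Sult1c2 (0.936 and 0.922), and for Gkn3 Duoxa2 (0.941). Syt8 was likewise listed for Gkn2 (0.884) and Tff2 (0.911). Those most like Anxa10 were Gif (0.933), Fer1l4 (0.931) and Ctse (0.914).

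Each member's closest genes on the chromosome were examined next. The 2 nearest genes on either side that had a row gave 17 neighbours that are not members, of which 15 were tested in embryos. In E10 deletion 2 of these 15 were called higher and 5 lower, where 23.9% and 27.6% of all genes were. In E13 deletion 4 were called higher and 1 lower against E16 intestine, where 18.7% and 20.8% were, and 2 higher and 0 lower against E18 intestine, where 8.19% and 7.91% were. In E15 deletion 0 were called higher and 4 lower, where 7.79% and 9.7% of all genes were. Muc2, which lies between Muc6 and Muc5ac on chromosome 7, was called lower under E10 deletion (log2 fold change -2.16, SE 0.58, adjusted p 0.00307 by edgeR), while Muc6 and Muc5ac on either side of it were called higher. Muc5b, on the other side of Muc5ac, averaged 24.1 CPM under E10 deletion and 0.234 CPM under E13 deletion, against 0 counts in E16 intestine, so it did not share the maximum of Muc5ac. Gkn1, Gkn2 and Gkn3 follow each other on chromosome 6, where Bmp10, next to Gkn3, averaged 0 CPM in each group listed. Antxr1, on the far side of Gkn1, averaged 4.44 CPM under E10 deletion and 1.33 CPM under E13 deletion, against 0.779 CPM in E16 intestine. Tff3, the goblet trefoil gene beside Tff2 on chromosome 17, averaged 298 and 644 CPM under the same labels, against 629 CPM, and was called lower under E10 deletion (log2 fold change -1.08, SE 0.23, adjusted p 0.000457 by edgeR).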

How the data were processed

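RNA-seq counts were deposited by the authors as one table of whole-number counts per gene. The submitters' processing notes name STAR 2.5.3a, HTSeq, Bowtie2, MACS2 and mm9, without roles. Reads were 75 bases, single-end. Embryonic and adult libraries used different kits and were fitted apart. The 4 adult columns each hold 2 blank cells, which shift later values by a row each. Closing them up raised the Spearman correlation of those libraries with E18 intestine, over 1676 genes between the blanks, from 0.280 to 0.295 up to 0.929 to 0.962. Tff1 and Tff2 lie there. Another 2 columns match no sample and were not used.

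Group differences were tested with edgeR 4.0.16 (R 4.3.3; TMM scaling, filterByExpr with a minimum count of 10, quasi-likelihood, Benjamini-Hochberg) on 27 embryonic libraries (17239 genes) and on 4 adult libraries (12444 genes). Folds against groups at 0 use a floor of 3 counts per library, and ratios with 1 to 3 counts carry exact 95% (Clopper-Pearson) intervals; both cover counting error only. Nothing in the labels says that replicates come from separate litters or animals, so p-values measure the spread between these libraries. Simulated counts with 200 changed genes gave 181 recovered and 8 false calls for E13 deletion against E16 intestine (16271 genes tested) and 183 recovered and 7 false for the adult comparison (12387 genes tested). The simulation gave all genes the same spread and, apart from the changed genes, equal means in all groups. Low genes were not among those changed. These rates therefore do not extend to genes near 0 counts in a group. Alternatives were DESeq2 1.42.0, RLE scaling, no filter, other sets of libraries, a replicate block, thinned counts and leaving out each library. The named genes are the members, the listed gene sets, the 2 nearest genes on either side in RefSeq and the 3 genes most like each member. Members and lists were chosen with earlier results of these data known.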

Additional observations from a re-analysis of the deposited data

Results flagged for a closer look

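Changes that differed between labels were examined as a difference of log2 fold changes in the same edgeR fit. The change under E13 deletion against E16 intestine differed from the change under E15 deletion against E18 intestine by 19.74 for Muc5ac, 8.28 for Muc6 and -1.33 for Gkn3. The change under E10 deletion differed from that under E15 deletion by 14.59 for Muc5ac, 5.00 for Muc6, 1.66 for Gkn3 and 3.84 for Tff2. The Muc5ac values have E16 intestine and E15 deletion at 0 counts, depend on the prior count and are no measure of size. The difference between hindstomach and intestine at E16 differed from that at E14 by -3.94 for Anxa10, 4.4 for Gkn3 and 4.85 for Tff2. No group had 4 or more libraries, so single libraries were not tested against their group.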

How the results depend on the processing

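Over the 90 calls of a member, alternatives gave 1148 values, of which 0 changed sign, 1071 kept the call and 77 lost it. Numbers of members called moved by over 1.5 times as follows. With DESeq2, 5 members were called for E13 against E15 deletion as a difference of changes and 5 for the hindstomach to intestine difference of E16 against E14, in place of 3 each. With only the groups compared, 0 were called for libraries labelled E12 hindstomach against midgut, 1 for intestine at E16 against E14, 5 for E13 against E15 deletion and 6 for the E16 against E14 difference. On thinned counts, 1 was called for E18 against E16 intestine, 1 for E13 against E15 deletion and 1 for E10 against E15 deletion. Leaving out 1 library gave 2 to 3 for E14 hindstomach against forestomach, 2 to 4 for E10 against E15 deletion, 1 to 3 for E13 against E15 deletion, 2 to 4 for adult ileum, 1 to 2 for intestine at E16 against E14 and 1 to 2 for intestine at E18 against E16. The cause was not tested. The replicate block left 7 called for E10 deletion against E16 intestine and 7 for E13 deletion, as without it. It ended the Tff2 calls for E14 hindstomach against forestomach (1.98, adjusted p 0.0678) and for E10 against E15 deletion (3.88, adjusted p 0.0763). It gained 4 calls: Gkn2 for E14 hindstomach against E12 (4.49, adjusted p 0.0454), Gkn1 for E13 against E10 deletion (-1.17, 0.0264), Gkn1 for E10 against E15 deletion (7.45, 0.0447) and Gkn2 for the E16 against E14 difference (4.75, 0.0243). Deviations of same-numbered libraries had correlations of -0.04 to 0.10 over 78 pairs of groups, so numbers do not pair the libraries. Depth limits Muc5ac, Gkn1 and Gkn2 in intestine, where single counts decide the fold.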
